A study of Mus musculus with 93 samples.

Results

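The genes described here are 10 genes of secreted plasma proteins that hepatocytes make, measured as RNA in libraries of sorted mouse macrophages and their progenitors: Alb, Afp, Apoa1, Apoa2, Ahsg, Ttr, Fgb, Fgg, Vtn and Gc. They were chosen by name, all 10 were found, and they account for 12 of the 37521 transcripts and 10 of the 14181 genes with a level. The 93 libraries were made by SMART-Seq2, which copies whole polyA transcripts from few cells, from cells labelled EMP (6 libraries), pMac (13) and Mac (74). EMP are erythro-myeloid progenitors, pMac the stage between them and macrophages, and Mac the macrophages themselves. The 46 groups combine cell type, tissue and age, with 1 to 4 libraries each. The labels give no genotype, strain, treatment, sort gate or number of animals, and the series text mentions technical as well as biological replicates but does not tell them apart, so that p-values measure only the spread between these libraries.

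The liver libraries carry most of the results. Liver EMP (n = 2) and pMac (n = 1) came from E10.25, and liver Mac from E10.25, E10.5, E12.5, E18.5, P2, P8 and P21 (n = 2 each) and E14.5 (n = 1). Yolk sac gave EMP of E9 and E10.25 (n = 2 each), pMac of E9.5 (n = 2) and E10.25 (n = 1), and Mac of E10.25 (n = 4) and E10.5 (n = 3). Brain Mac covered E10.25 to P21 (17 libraries), limbs Mac E10.25 to E12.5 (6), kidney Mac E14.5 to P21 (10), lung Mac E14.5 to P21 (8) and skin Mac E14.5 to P21 (11). The remaining pMac came from brain at E9.5 (n = 4) and E10.25 (n = 1), from limbs at E10.25 (n = 1) and from a tissue labelled caudal at E9.5 (n = 3).

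A hepatocyte is the main secretory cell of the liver. In the embryo the visceral endoderm of the yolk sac makes alpha-fetoprotein and several apolipoproteins before and while the liver forms. Hepatoblasts of the fetal liver make alpha-fetoprotein together with albumin, and after birth the Afp gene is silenced while Alb stays among the most strongly transcribed genes of the liver. Kupffer cells are the macrophages of the liver and lie in the sinusoids beside hepatocytes.

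Values are on a log2 scale, so that 1 unit is a factor of 2. Values at or below a floor of 5.37 could not be told from the lower band of each library, and a gene at that level is called not detected, which here is no proof of absence because the depth of the libraries is unknown. The sum of a gene's transcripts above the floor is its level. All 12 macrophage markers listed, among them Csf1r, Adgre1 and C1qb, were detected in each Mac library except those of lung P2 and P8 (11) and of skin P8 and P21 (8 to 10). Their levels varied: Csf1r and C1qb were at 10.40 and 10.62 in brain E12.5 replicate 1 against 14.66 and 15.45 in replicate 2, and at 10.82 and 8.33 in lung P8, and C1qb was at 6.55 in skin P21 replicate 2. Against the other non-liver tissues, 7 of the 12 markers were lower in lung and 9 in skin. In bulk RNA, fewer cells of a type and less RNA per cell cannot be told apart, and neither can RNA made by the sorted cells and RNA they took up or were sorted with. Across the series 14438 to 25195 transcripts per library were detected (median 22662), and 9 libraries lay under 18000. Those 9 include both liver P21 libraries, liver P2 replicate 1 and liver P8 replicate 2. Liver Mac against other tissues, against fetal liver, and Alb minus Afp are given with and without them. The step to P21, the shares and order at P21, and the lung and kidney comparisons are given only with them.

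Alb and Afp stand next to each other on chromosome 5 of the mouse genome (GRCm38, mm10), Alb at chr5:90460897-90476602 and Afp at chr5:90490737-90508907, both on the plus strand. Their proteins are homologous carriers in blood, and Gc, the vitamin D binding protein at chr5:89417522-89457898 on the minus strand, belongs to the same family. The 250 bases before the start of Alb (chr5:90460620-90460869, plus strand) and Afp (chr5:90490464-90490713, plus strand) are shown because these 2 neighbours moved in opposite directions in the liver, as described further on. Both are from RefSeq (GRCm38.p6) and read from 5′ to 3′, with capitals marking GTTAAT, the core of the element that HNF1 factors bind.
Alb: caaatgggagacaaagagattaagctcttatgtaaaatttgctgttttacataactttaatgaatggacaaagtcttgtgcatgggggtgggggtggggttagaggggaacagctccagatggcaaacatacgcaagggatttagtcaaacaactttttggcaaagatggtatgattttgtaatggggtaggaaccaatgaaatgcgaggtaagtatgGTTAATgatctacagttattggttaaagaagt
Afp: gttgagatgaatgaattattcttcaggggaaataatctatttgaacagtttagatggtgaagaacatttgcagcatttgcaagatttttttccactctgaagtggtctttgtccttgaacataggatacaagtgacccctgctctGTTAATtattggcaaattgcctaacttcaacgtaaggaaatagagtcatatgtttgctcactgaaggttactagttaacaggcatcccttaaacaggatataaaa

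GTTAAT, searched on both strands with overlaps allowed, occurred in this window in 5 of the 9 members that RefSeq's table held (Alb, Afp, Fgb, Vtn and Gc), against 6.43% of 32851 promoter windows of the same length. Counted from the start in RefSeq, which for Alb and Afp lies upstream of the gene start given above, it lay 32 bases before the start of Alb, 105 before Afp and 52 before Gc on the gene's strand, and 24 before Fgb and 107 before Vtn on the opposite strand. Read on from the match, the windows were GTTAATgatctac for Alb, GTTAATtattggc for Afp, GTTAATgattaaa for Gc, GTTAATatttgac for Fgb and GTTAATctccctg for Vtn. The full palindrome GTTAATNATTAAC, searched on both strands, occurred in 0 of the 9 and in 0.00913% of all windows. These matches describe letters and carry no measurement of binding.

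The other members are spread over the genome. Apoa1, the main apolipoprotein of high density lipoprotein, lies at chr9:46228580-46230466, and Apoa2, its partner on the same particle, at chr1:171225054-171226379. Ahsg, which encodes fetuin-A, an inhibitor of mineral deposition in blood, lies at chr16:22891277-22899449, and Vtn, the adhesive protein vitronectin, at chr11:78499091-78502324. Fgb (chr3:83040141-83049863, minus strand) and Fgg (chr3:83007724-83015049, plus strand) encode 2 of the 3 chains of fibrinogen. Ttr, the carrier of thyroid hormone and of retinol binding protein, lies on chromosome 18. Every gene was measured by 1 protein-coding transcript except Apoa2, which had 3.

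Each library of the liver course is first described by how many of the 10 genes it held. Of the 15 liver Mac libraries, 12 had at least 5 of the genes above the floor, 11 had at least 8 and 6 had all 10. One E10.25 library had 0, and E10.5 replicate 1 had Afp alone. Of 61 libraries from outside liver and yolk sac, 25 had none of the genes, 17 had 1, 15 had 2 to 4 and 4 had at least 5. Yolk sac lay between them, with at least 5 of the genes in 5 of 14 libraries and none in 3.

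**Figure D1:**
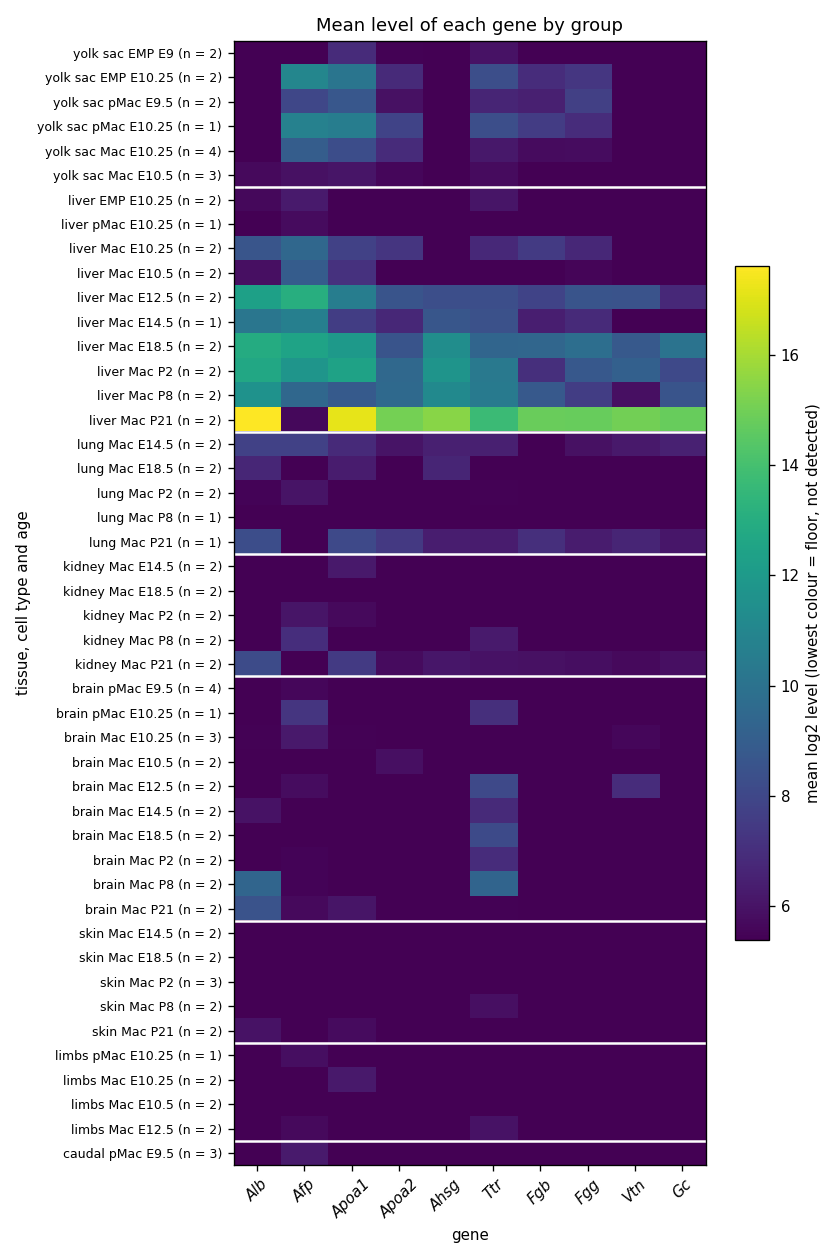
Mean log2 level of each gene (columns) in the 46 groups (rows, with the number of libraries), grouped by tissue. The darkest colour is the floor of 5.37, the brightest cells are the liver P21 means, and the yolk sac rows are dark for Alb, Ahsg, Vtn and Gc or nearly so.

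The first comparison asked which of these genes set liver Mac apart from Mac of brain, kidney, lung and skin at the same ages, E14.5 to P21. All 10 were higher in liver. The largest differences were those of Alb (6.75 ± 0.41 SE, mean level 13.01 against 6.26), Ahsg (6.11 ± 0.21) and Apoa1 (5.75 ± 0.46), and the smallest that of Vtn (3.34 ± 0.25), with limma adjusted p-values from 1.44e-32 for Ahsg to 3.56e-09 for Afp. In that comparison 7.58% of the 14173 genes tested were called higher, a call being a Benjamini-Hochberg adjusted p under 0.05 and a log2 difference of at least 1 in size. The median difference of the 10 genes was 4.35, and that of all genes tested was -0.08. Without P21 in any tissue all 10 were still called, with Alb at 5.96, Fgb at 2.54, Gc at 2.57 and Vtn at 1.87. Without the 9 libraries with few detected transcripts all 10 were called too, with Apoa2 at 2.74, Ttr at 2.90 and Vtn at 1.49. The standard errors and p-values here rest on 1 estimate of spread per gene over all 93 libraries. Groups at the floor add little to that estimate, so it can understate the spread between liver libraries. The same limit holds for each later comparison from the fit of all libraries.

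Of 36 other plasma protein genes listed, 28 were measured and 24 were higher in liver, led by F2 (prothrombin, 4.59), Hp (haptoglobin, 3.87), Ambp (3.83) and Kng1 (kininogen, 3.70), with a median of 2.24. Of 25 enzymes of mature hepatocytes 11 were measured and 10 were higher, among them Cyp2e1 (3.62) and Bhmt (3.21). None of the 8 measured hepatocyte transcription factors (of 18 listed) was called, with a median difference of 0.25. Hnf4a, listed for both hepatocytes and visceral endoderm, was at the floor in 9 of the 15 liver Mac libraries. It reached 8.88 at most in liver Mac, in P21 replicate 1. Kidney P21 replicate 1 had more of it (10.46), and yolk sac EMP of E10.25 replicate 2 had it at 8.09.

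Markers of other cells moved with the same contrast. All 12 Kupffer cell markers were higher in liver, led by Cd5l (8.65) and Clec4f (8.57), and so were all 10 erythroid genes, led by Hbb-bs (6.93) and Hba-a2 (6.85), whose reads may be shared with near-identical copies. The summed level of the erythroid list above the floor was 80.6 to 98.2 in liver Mac of E12.5 to E18.5 and 45.9 to 73.9 in those of P2 to P21. Of the remaining lists, liver endothelium had 4 higher and 2 lower of 8, macrophage 5 and 2 of 12, fetal liver genes 2 and 2 of 10, visceral endoderm 2 and 1 of 12, cholangiocyte 0 and 2 of 5, keratinocyte 0 and 4 of 5, neural 0 and 1 of 6, and stellate cell (6), kidney tubule (3) and lung epithelium (2) none. The part of these cell types in the results on the plasma protein genes was not tested.

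In the liver course Alb was at the floor and at 11.87 in the 2 libraries of E10.25, and at the floor and at 6.34 at E10.5. It stood at 12.03 and 12.62 at E12.5, 10.19 at E14.5, 11.30 and 14.51 at E18.5, 12.82 and 12.64 at P2, 10.60 and 12.62 at P8, and 17.35 and 17.91 at P21. The P21 libraries were far above all others, and among the libraries of E12.5 to P8 the values of the ages overlapped.

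Afp had another course. Its levels were at the floor and 13.52 at E10.25, 8.34 and 9.57 at E10.5, 12.99 and 13.15 at E12.5, 10.67 at E14.5, 10.85 and 14.09 at E18.5, 11.85 and 11.65 at P2, 9.44 and 9.49 at P8, and 5.90 and the floor at P21. The lowest libraries from E12.5 onward were thus those of P21, and those of P8 were the next lowest. The E10.25 library without Alb had none of the 10 genes, while replicate 2 had 7 of them and the second highest Afp of the liver.

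**Figure D2:**
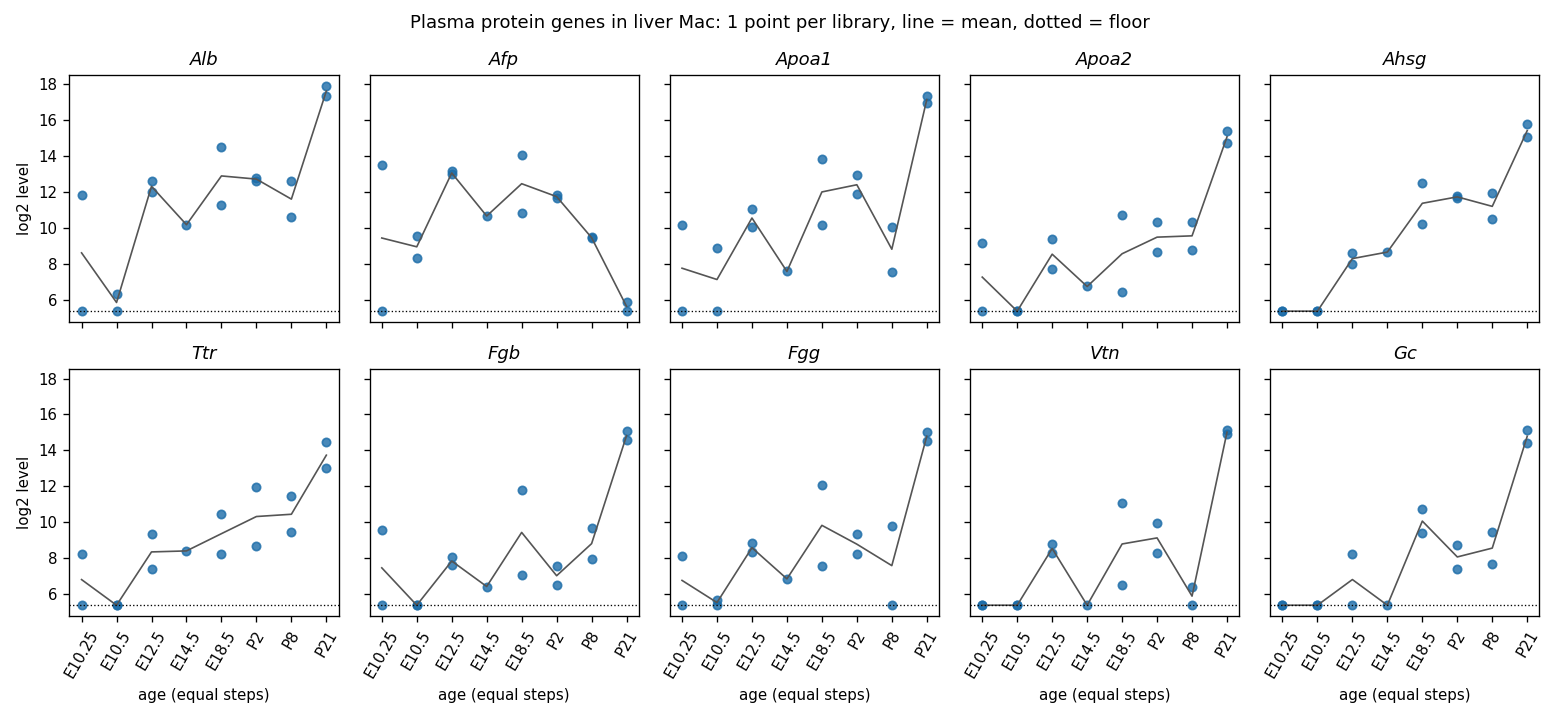
Log2 level of each gene in the 15 liver Mac libraries by age, 1 point per library, with the line through the mean of each age and the floor of 5.37 dotted. Alb reached 17.35 and 17.91 at P21, where Afp was at 5.90 and at the floor, and the other 8 genes also had their highest points at P21.

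Alb and Afp were also set against each other within each library, where a factor common to both genes cancels. Levels were first set per transcript length, which hardly matters here since the transcripts have 2034 and 2063 bases. Alb was below Afp at E10.25 (-1.64, replicate 2), E10.5 (-3.21 in replicate 2), E12.5 (-0.93 and -0.52) and E14.5 (-0.46), and above it at E18.5 (0.47 and 0.44), P2 (0.98 and 1.01), P8 (1.18 and 3.15) and P21 (11.47 and at least 12.56, since Afp was at the floor in replicate 2). The mean was -0.20 ± 0.63 (SD, n = 5) at E12.5 to E18.5 and 5.06 ± 5.46 (SD, n = 6) after birth, and the groups did not overlap. The difference of 5.26 had p = 0.00433 in the exact two-sided permutation test, the smallest p that 6 against 5 libraries allow.

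The size of that difference rests on P21. Without P21 it was 1.78 (exact permutation p = 0.0159), and with E14.5 and E18.5 set against P2 and P8 it was 1.43 (exact permutation p = 0.0571). Without the libraries with few detected transcripts it was 1.30 with 2 postnatal libraries left (exact permutation p = 0.0952). Each of these is the smallest p that its number of libraries allows.

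**Figure D3:**
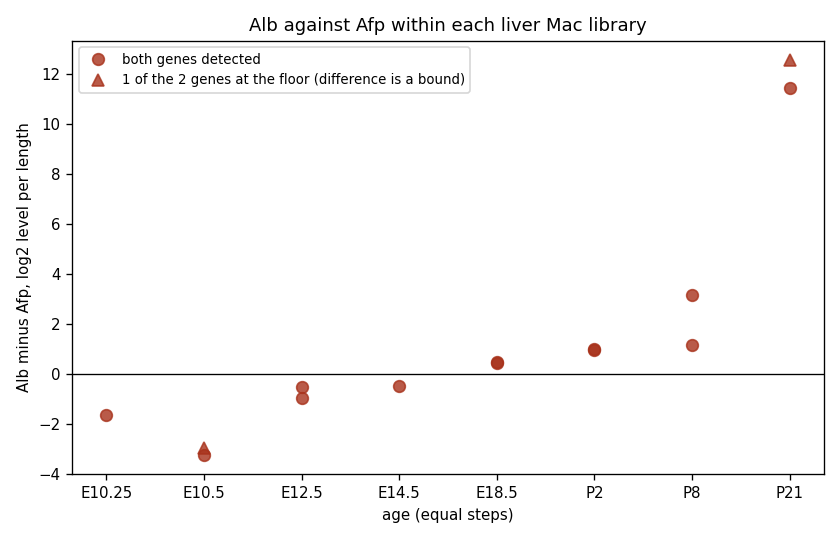
Alb minus Afp (log2 level per transcript length) within each liver Mac library by age, circles where both genes were detected and triangles where 1 of them was at the floor. Points lie below 0 up to E14.5, at 0.44 and 0.47 at E18.5 and above that at P2, P8 and P21. The triangle at P21 is a lower bound and the one at E10.5 an upper bound.

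Between E10 and the fetal liver stage, the question was which of the genes appear as the liver forms. Liver Mac of E12.5, E14.5 and E18.5 were higher than those of E10.25 and E10.5 in 6 of the 10 genes, where 2.19% of all genes were called higher. These were Alb (4.57 ± 0.73), Ahsg (4.08 ± 0.37), Ttr (2.61 ± 0.77), Fgg (2.28 ± 0.58), Vtn (2.19 ± 0.45) and Gc (2.04 ± 0.35), with limma adjusted p-values from 1.75e-12 for Ahsg to 0.048 for Ttr. Afp (2.87 ± 0.96, adjusted p = 0.0964), Apoa1 (2.60 ± 0.82, adjusted p = 0.0723), Apoa2 (1.63 ± 0.59) and Fgb (1.48 ± 0.55) did not pass. The median difference was 2.44 over the 10 genes and 0.00 over all genes tested. In the same comparison 8 of 10 erythroid genes (median 5.38), 7 of 12 Kupffer cell markers (2.83) and 3 of 8 genes of liver endothelium (2.37) were higher, and their part in the result was not tested.

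Ahsg, Vtn and Gc were at the floor in all 4 libraries of E10.25 and E10.5, also in the library that held Alb at 11.87 and Afp at 13.52. Ahsg was then detected in every liver Mac library from E12.5 on, at 7.99 and 8.61 at E12.5, 8.66 at E14.5, just above 10 and at 12.51 at E18.5, 11.70 and 11.77 at P2, 11.94 and 10.48 at P8, and 15.08 and 15.78 at P21. No value at E18.5 or later lay below those of E12.5 and E14.5. Gc was detected at 8.23 in 1 of the 2 libraries of E12.5, not at E14.5, and in every library from E18.5 on.

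Those E10 calls hang on how the spread is estimated. The 93 libraries share 1 estimate per gene, to which the many groups at the floor contribute little spread, and in a fit of the 15 liver Mac libraries alone Ahsg was the only member called (adjusted p = 0.00942, limma), where 0.871% of 12282 genes were called higher, while Alb had adjusted p = 0.0763. Without E10.25 replicate 2, the library with 7 of the genes, all 10 were called in the fit of all libraries, as they were without the E14.5 library or without E18.5 replicate 1, and 4 were called without E10.25 replicate 1, E10.5 replicate 1 or E18.5 replicate 2.

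At single ages the E12.5 liver was compared with brain and limbs Mac of E12.5, and 8 of the 10 genes were called, all higher, where 3.44% of all genes were called in either direction. Afp (7.34 ± 1.21) and Alb (6.95 ± 0.92) led, followed by Apoa1 (5.19 ± 1.04), Fgg (3.20 ± 0.72), Apoa2 (3.17 ± 0.75), Ahsg (2.93 ± 0.47), Fgb (2.46 ± 0.69) and Vtn (2.38 ± 0.56). Ttr (1.33 ± 0.97) and Gc (1.43 ± 0.45, limma adjusted p = 0.0586) did not pass. Without E12.5 replicate 2 of the liver, 3 of the 8 remained. Here 9 of 10 erythroid genes (median 6.09), 9 of 12 Kupffer cell markers (4.84) and 4 of 8 genes of liver endothelium (3.41) were higher too, and their part was not tested. At E10.25 and E10.5, 1 of the 10 genes was higher in liver than in brain and limbs, where 0.134% of all genes were: Afp, at 3.62 ± 0.84 (limma adjusted p = 0.033), a call that was lost in 11 of 13 fits that left out 1 library.

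The steps to P2 and P8 and then to P21 were compared after the values had been seen. From the fetal stage to P2 and P8, 1 of the 10 genes passed the test. It was Ahsg, which rose by 2.03 ± 0.37 (limma adjusted p = 0.000268), where 1.07% of all genes were called higher. Alb differed by 0.36 ± 0.73 and Apoa1 by 0.57 ± 0.82, Fgb, Fgg and Vtn by 0.02, -0.24 and -0.06, and Afp by -1.46 ± 0.96 (adjusted p = 0.543). The median was 0.46 over the members. In the limma fit of liver Mac alone, where 0.0733% of genes were called higher, Ahsg was not called (adjusted p = 0.333) and neither was any other member. Without all 9 libraries with few detected transcripts, 2 of them of these ages, Gc was called as well (1.67, limma adjusted p = 0.00481).

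Of the enzymes of mature hepatocytes, 7 of the 11 measured were higher at P2 and P8 than at E12.5 to E18.5, led by Cyp2e1 (3.56), Bhmt (3.43), Fabp1 (3.09) and Fbp1 (2.92), with a median of 1.99. Of 28 other plasma protein genes 2 were higher, Kng1 (3.12) and Apoc4 (2.10). Of the other lists, 4 of 8 genes of liver endothelium, 3 of 10 erythroid genes and 2 of 10 fetal liver genes were lower and 2 of 12 Kupffer cell markers higher. The difference between the lists, and the part of these cell types, was not tested.

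From P2 and P8 to P21, 9 of the 10 genes rose and Afp fell, where 13.9% of all genes were called in either direction. The 9 rose by 3.35 ± 0.97 (Ttr) to 7.51 ± 0.56 (Vtn), with Alb at 5.46 ± 0.92, Apoa1 at 6.54 ± 1.04, Apoa2 at 5.55 ± 0.75, Ahsg at 3.96 ± 0.47, Fgb at 6.91 ± 0.69, Fgg at 6.61 ± 0.72 and Gc at 6.48 ± 0.45. Afp fell by 4.97 on the log2 scale (SE 1.21, limma adjusted p = 0.00287), a size that the floor limits. The median was 6.02 over the members and -0.39 over all genes tested. In the fit of liver Mac alone 8 of the 9 were still called higher, where 1.19% of 12282 genes were, with adjusted p-values from 0.00538 (Vtn) to 0.0352 (Alb), while Ttr (0.136) and Afp (0.0896) were not. Ttr was also lost from the fit of all libraries without P2 replicate 2, P8 replicate 1 or P21 replicate 2.

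Every one of the 9 had both P21 libraries above all other liver libraries. Apoa1 stood at 16.95 and 17.36 at P21 and at 7.56 to 12.93 at P2 and P8. Fgb stood at 14.57 and 15.07 against 6.48 to 9.66, and Fgg at 15.03 and 14.54 against 5.37 to 9.78. For each of these 3 genes the lowest value at P21 was above the highest at P2 and P8.

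Vtn, which was at the floor at E14.5 and in 1 library of P8, reached 14.91 and 15.11 at P21. Gc reached 14.42 and 15.16 from 7.40 to 9.43, and Apoa2 14.77 and 15.40 from 8.66 to 10.36. Ttr had the smallest gap, with 12.99 and 14.47 against 8.67 to 11.95. Together the 10 genes took 2.34% and 2.68% of all linear signal above the floor in the P21 libraries, and at most 0.54% in any other library, which was E18.5 replicate 2.

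Of the other plasma protein genes 25 of 28 rose from P2 and P8 to P21, with a median of 5.45, led by Ces1c (7.62), Rbp4 (7.39), Serpinc1 (antithrombin, 7.09) and Ambp (6.84). Of the mature enzymes 7 of 11 rose and 1 fell, led by Cyp2e1 (6.16). Of the erythroid genes 2 of 10 were lower, among them Slc4a1 (-4.30), of the genes of liver endothelium 2 of 8 were higher, and 0 of 12 Kupffer cell markers were called by limma. Both P21 libraries are among those with few detected transcripts (14957 and 16396), and the part of that in the rise was not tested.

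With all postnatal ages as 1 group against E12.5 to E18.5, 9 genes were called higher and Afp lower (-3.12 ± 0.87, limma adjusted p = 0.0206), where 5.14% of genes were called in either direction. The call of Alb (2.19, limma adjusted p = 0.0388) was lost in 7 of 11 fits that left out 1 library, and that of Apoa1 in 5. With P2 and P8 alone in place of all postnatal ages, Ahsg was the member called, as given above. Without the 9 libraries with few detected transcripts, which include both of P21, 1 of P2 and 1 of P8, Ahsg (2.41) and Gc (1.67) were called, Alb was at -0.18 and Vtn at -0.74. In the same comparison 5 of 10 erythroid genes and 4 of 8 genes of liver endothelium were lower and 2 of 12 Kupffer cell markers higher, and their part was not tested. In the fit of liver Mac alone Ahsg was called (adjusted p = 0.034, with 0.391% of genes called higher) and Afp was not (adjusted p = 0.227). The E14.5 group has 1 library, and without it 5 of the 9 stayed called, while without E18.5 replicate 2 Afp was not called.

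**Figure D4:**
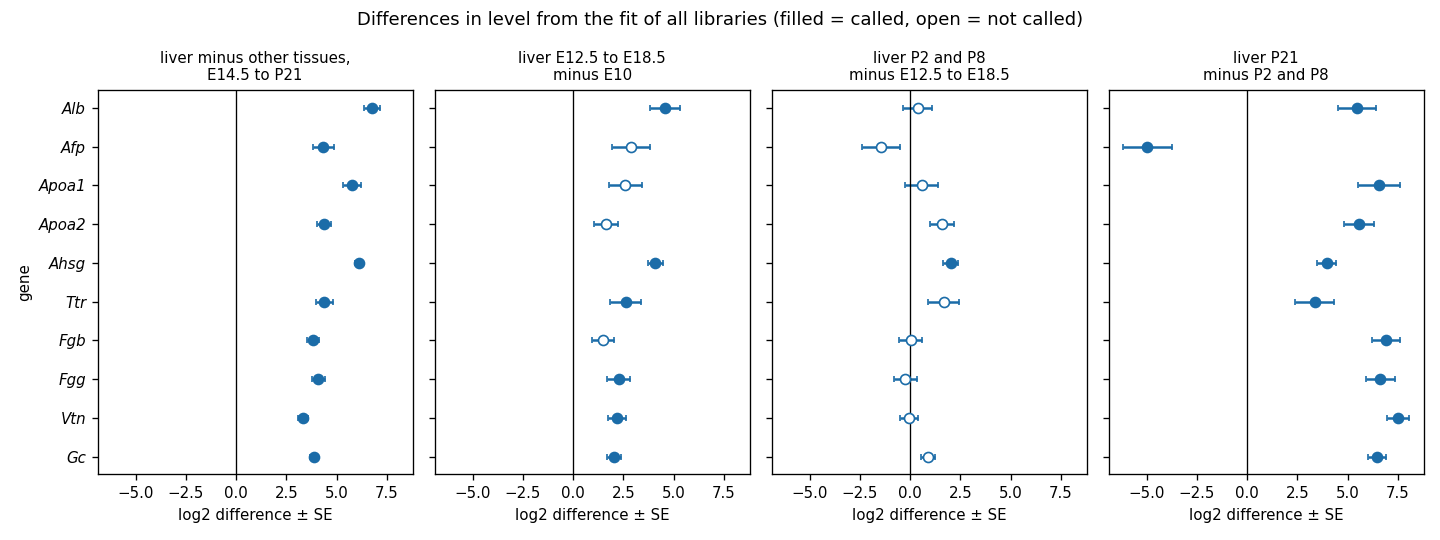
Log2 difference of each gene with its standard error in 4 comparisons of the fit of all 93 libraries, filled where called and open where not. The members lie to the right of 0 in liver against other tissues, between -1.46 and 2.03 at P2 and P8, and at 3.35 to 7.51 at P21 except Afp at -4.97.

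In brain, kidney, lung and skin Mac, 0 of the 10 genes were called between P2 to P21 and E14.5 to E18.5 by limma, where 8.18% of all genes were called in either direction, and 0 had an unadjusted p under 0.05. The largest difference was that of Alb (0.60 ± 0.35, adjusted p = 0.304). The change in liver exceeded that in the other tissues for Apoa2 (3.61 ± 0.69), Ahsg (2.92 ± 0.44), Vtn (2.90 ± 0.52) and Gc (2.79 ± 0.42), with adjusted p from 5.87e-06 to 0.000646, where 0.699% of genes were called higher. In the other tissues these 4 genes lay mostly at the floor and changed by -0.15 (Ahsg) to 0.12 (Apoa2). A fall there could not be seen, so that this comparison largely restates the change in liver. With no floor none of the 4 was called. Without P21 in every tissue Ahsg was called (1.74, adjusted p = 0.0317) and the other 3 were not, and without the single liver library of E14.5 none of the 4 was.

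Levels of different genes can be set side by side only per length. On that scale, the share of the summed signal of the 10 genes that each gene took moved with age. In liver Mac of E12.5 to E18.5 Afp took a median of 35.7% (at least 17.6% in each of 5 libraries) and Alb 25.5% (23.9% to 25.6%). At P2 and P8 Afp took a median of 6.33% and at P21 at most 0.0026%. At P21 Apoa1 took 35.1% in replicate 1 and 33.0% in replicate 2, Alb 23.6% and 24.6%, and Apoa2 16.6% and 18.0%.

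The order at P21 on this scale was Apoa1 (17.1 ± 0.29 log2 per length, SD, n = 2), Alb (16.6 ± 0.39), Apoa2 (16.1 ± 0.43), Ahsg (14.9 ± 0.50), Vtn (14.2 ± 0.14), Fgg (14.0 ± 0.34), Gc (13.9 ± 0.52), Ttr (13.5 ± 1.04) and Fgb (12.9 ± 0.36). The 2 libraries of neighbouring genes did not overlap between Apoa1 and Alb, between Apoa2 and Ahsg and between Ahsg and Vtn, and overlapped for every other pair of neighbours. Such overlap ignores that all genes come from the same libraries. Within each library Alb was above Apoa2 (16.33 against 15.82 and 16.89 against 16.43), Gc above Ttr and Ttr above Fgb. Fgg changed places with Vtn and with Gc between the libraries. This order depends on the division by length: as deposited, Alb was above Apoa1 in both P21 libraries (17.35 against 16.95 and 17.91 against 17.36), and Apoa2 was at 14.77 and 15.40. Whether the deposited values already account for length is not known, and over 22956 transcripts length and mean value had a Spearman correlation of 0.11. At E12.5 to E18.5 Afp (11.3 ± 1.53, n = 5) and Alb (11.1 ± 1.63) led, ahead of Apoa1 (10.4 ± 2.37), and all 3 overlapped. The share of Alb was thus nearly the same in the fetal and the P21 libraries while that of the gene next to it on the chromosome fell from 49.01% and 36.4% at E12.5 to 18.3% and 17.6% at E18.5 and to 0.0026% or less at P21.

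Among the P2 and P8 libraries the make-up varied more than between the 2 of P21. The 10 genes took 0.039% to 0.19% of all linear signal above the floor at P2 and P8. At E12.5 to E18.5 they took 0.0315% to 0.54%. P8 replicate 1 had 36.9% Ahsg, and P8 replicate 2 had 32.0% Alb, 27.4% Apoa2 and 24.2% Ttr with 1.49% Apoa1. The 2 libraries of P8 therefore do not describe 1 common make-up.

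**Figure D5:**
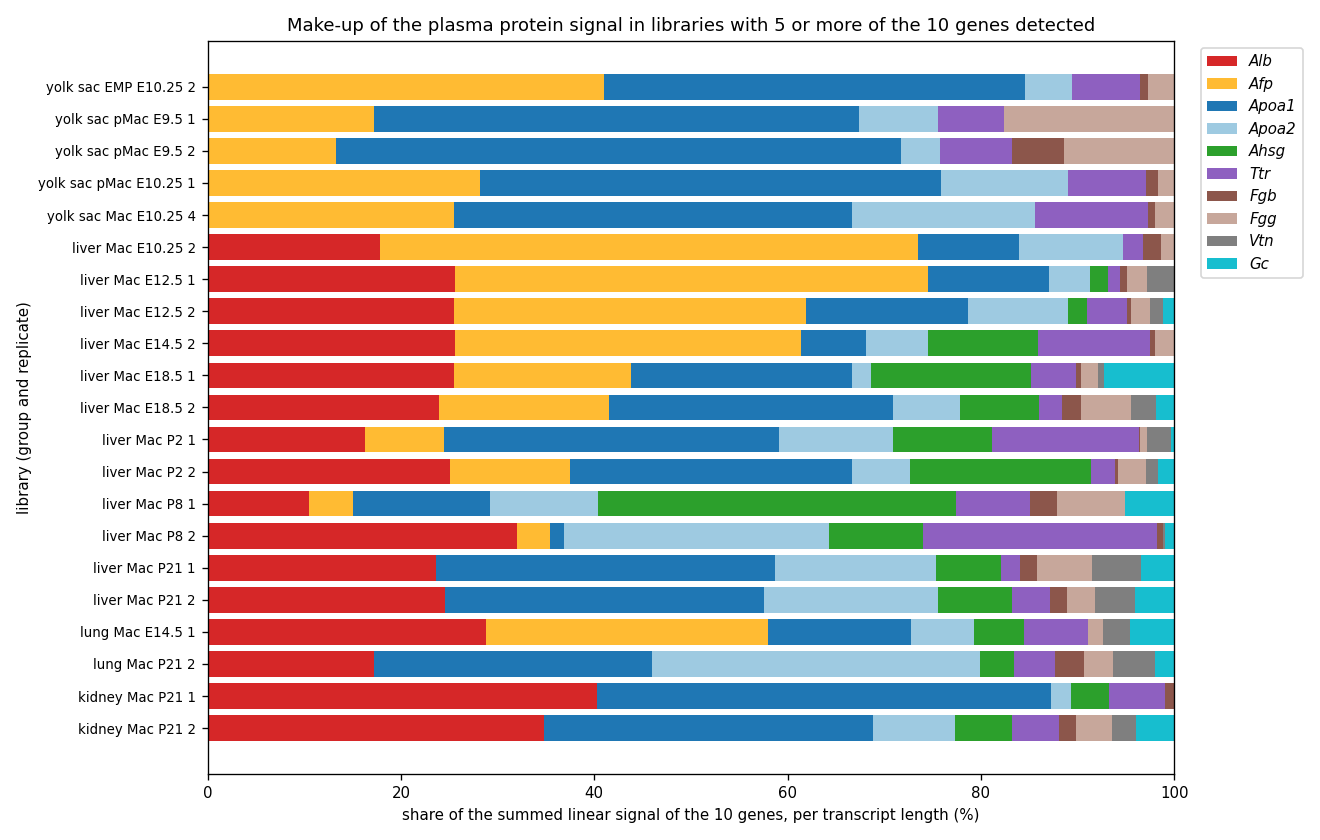
Share of each gene in the summed linear signal of the 10 genes per transcript length, in % (bars add up to 100), for the 21 libraries with at least 5 of the genes above the floor, by tissue, cell type and age. Yolk sac bars have no Alb, Ahsg, Vtn or Gc, the Afp share of the liver bars goes from 55.7% at E10.25 to 0.0026% or less at P21, and lung E14.5 replicate 1 holds 29.1% Afp where lung and kidney P21 hold none.

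The yolk sac libraries had part of the same set. Afp, Apoa1, Apoa2, Ttr, Fgb and Fgg were found there, whereas Ahsg, Vtn and Gc were at the floor in all 14 libraries and Alb was above it in 2 of them, at 5.52 and 6.29. The 3 pMac libraries had Afp at 8.15 and 7.80 (E9.5) and 10.78 (E10.25), and Apoa1 at 8.63, 8.79 and 10.55. No yolk sac pMac library was without either gene.

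Among libraries from outside the liver, Afp, Apoa1, Fgb and Fgg were highest in a yolk sac EMP library of E10.25. Replicate 2 had Afp at 13.19, Apoa1 at 12.29, Ttr at 9.91, Fgg at 9.11, Fgb at 8.53 and Apoa2 at 8.27, with Alb at the floor, and replicate 1 had Afp at 8.84 and Apoa1 at 7.95. Among EMP of E9, replicate 1 had none of the genes and replicate 2 had Apoa1 at 8.37 without Afp. Yolk sac Mac of E10.25 had Afp at 10.04, 10.18 and 10.40 in 3 libraries and at the floor in replicate 2, and those of E10.5 had Afp at 6.97 in 1 library of 3. Per length, Apoa1 took 41.1% to 58.5% of the signal in the 5 yolk sac libraries with at least 5 of the genes, and Afp 13.2% to 41.0%.

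The difference from liver is plainest in the pair of E10.25 libraries with the most Afp. Liver Mac replicate 2 (Afp 13.52) had Alb at 11.87, and yolk sac EMP replicate 2 (Afp 13.19) had Alb at the floor, although their cell types differ. In that yolk sac library 11 of the 12 measured visceral endoderm markers were detected, Cubn and, at 8.19, Amn among them, against 6 in replicate 1. In the liver library 3 of the 12 were detected, with Cubn and Amn at the floor. Among all yolk sac libraries 2 to 11 of these markers were detected, and their part in the Afp levels was not tested.

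No member passed the test in the yolk sac. Yolk sac Mac of E10.25 and E10.5 against brain and limbs Mac gave 0 of 10 calls by limma, where 0.318% of genes were called higher, with Afp at 1.87 ± 0.71 (adjusted p = 0.201) and Apoa1 at 1.54 ± 0.61 (adjusted p = 0.217), both with an unadjusted p under 0.05. Liver EMP against yolk sac EMP of E10.25 also gave 0 calls, where 0.310% of genes were called in either direction, with Apoa1 at -4.70 ± 1.20 (adjusted p = 0.0727) and Afp at -4.77 ± 1.39 (adjusted p = 0.213), 3 of the 10 having an unadjusted p under 0.05. Without yolk sac EMP replicate 1 both were called, but the yolk sac then has 1 library, replicate 2, which is assumed to vary like the other groups. Of the 12 visceral endoderm markers 2 were lower in liver EMP, and their part was not tested.

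Liver progenitors held little. Liver EMP replicate 3 had Afp at 7.11, Ttr at 6.80, Alb at 5.94 and Apoa1 at 5.46, and replicate 2 had none of the genes. The single liver pMac library had Afp at 5.73 alone.

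In lung, single libraries held nearly the whole set. Lung Mac of E14.5 replicate 1 had 9 of the 10 genes, with Alb at 10.10, Afp at 10.13, Apoa1 at 8.31, Gc at 7.57, Ttr at 7.51, Ahsg at 7.48, Vtn at 7.02, Apoa2 at 6.62 and Fgg at 6.45, while replicate 2 had none. The liver library of the same age had Alb at 10.19 and Afp at 10.67. In the lung library 12 of 12 Kupffer cell markers were detected with a summed level of 59.5 above the floor, against 3 and 13.2 in replicate 2 and 11 and 72.3 in the liver library, and 10 of 10 erythroid genes with 63.8, against 2 and 6.73. Clec4f, a marker that defines Kupffer cells, was at 9.45 there and at the floor in replicate 2. Lung E18.5 replicate 2 had Clec4f at 9.86 with Alb at 7.99, Ahsg at 7.91 and Apoa1 at 7.22 and no other member, skin P2 replicate 1 had it at 9.06 with none of the 10 genes, and kidney E14.5 replicate 1 at 8.66 with Apoa1 alone (7.08). This library thus differs from its replicate in liver markers of several cell types, and their part in its plasma protein RNA was not tested.

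The P21 traces had another make-up. Lung P21 (1 library, replicate 2, with 14438 transcripts the lowest of the series) had 9 of the genes, all but Afp, with Alb at 8.26, Apoa1 at 8.06 and Apoa2 at 7.39. Kidney P21 had Alb at 7.58 and 8.77 and Apoa1 at 7.02 and 7.90, with 7 and 9 of the genes detected and Afp at the floor in both. Afp took 29.1% of the signal in the lung E14.5 library and none in the P21 libraries of lung and kidney. Afp was detected in 3 of the 10 kidney libraries and 2 of the 8 lung libraries, lung E14.5 replicate 1 among them. Lung E18.5 replicate 2 had Alb, Ahsg and Apoa1 with Afp at the floor. Where Afp was detected between E14.5 and P21, few or none of the other genes were. It was at 6.28 and 5.80 in kidney P2, where Apoa1 was the other member detected, and at 8.54 alone in kidney P8 replicate 2. In lung P2 replicate 2 it was at 6.63, with Alb at 5.60 and Ttr at 5.47. Its share there was 49.2% and 82.0% in kidney P2 and 82.7% in lung P2, against 8.18% and 12.4% in liver P2. In kidney P2 and lung P2 replicate 2 the detected members stood at 5.42 to 6.63, and in liver P2 at 6.48 to 12.93. These kidney and lung libraries are also among the 9 with few detected transcripts (14927, 17299 and 17340). Shares from so little signal above the floor cannot be compared with those of liver P2. Clec4f was at 8.04 in lung P21 and at 6.71 and 8.0 in kidney P21, against 17.10 and 17.70 in liver P21. All 3 kidney tubule markers were detected in both kidney P21 libraries, and some of the mature hepatocyte enzymes, such as Fbp1, are also enzymes of kidney tubules.

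Neither tissue was set apart as a whole. Kidney Mac against brain, lung and skin Mac gave 0 of 10 calls by limma, where 5.81% of genes were called higher and 4.42% lower, and 0 members had an unadjusted p under 0.05. Lung Mac against the other 3 gave 0 calls, where 3.49% were called higher and 14.2% lower, and 1 member had an unadjusted p under 0.05. That member, Ahsg, had an adjusted p of 0.0456 but a difference of 0.61 ± 0.22, under the size required.

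Brain Mac had mainly Ttr and, after birth, Alb. Afp was detected in 6 of the 17 libraries, at 7.72 in E10.25 replicate 3 and at 5.54 to 6.14 in the others. Ttr was detected in 9 of 17 libraries, at 7.97 and 8.16 at E12.5, at 8.31 in 1 of 2 at E14.5, at 9.70 and 6.50 at E18.5, at 8.51 in 1 of 2 at P2, at 11.46 and 7.16 at P8 and at 5.49 in 1 of 2 at P21. It was not detected in brain Mac of E10.25 or E10.5, but the single brain pMac library of E10.25 had it at 7.03, with Afp at 7.25. The choroid plexus of the brain is known to make transthyretin. Kl, a gene active in choroid plexus and in kidney, was at the floor in all 17 libraries, also in P8 replicate 2 with Ttr at 11.46. The part of choroid plexus RNA in these levels was not tested. Ahsg and Fgb were at the floor in all 17, and Vtn reached 8.50 in 1 library of E12.5.

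Over E14.5 to P21, Ttr was higher in brain than in kidney, lung and skin Mac (1.68 ± 0.42, limma adjusted p = 0.00229), the only 1 of the 10 called, where 9.34% of genes were called higher, so that 1 member in 10 is a share near the background. In the same comparison 3 of 6 neural markers (median 1.56) and 9 of 12 macrophage markers (2.31) were higher, and their part in the Ttr level was not tested. In brain Alb was at 10.33 and 8.38 at P8 and at 7.25 and 9.77 at P21 and, apart from 6.53 in 1 library of E14.5, at the floor from E14.5 to P2. Its difference of 0.87 ± 0.40 did not pass (adjusted p = 0.132), and it did once lung E14.5 replicate 1 was left out. With Alb at 10.33 in brain P8 replicate 2, Apoa1, Apoa2, Ahsg, Fgb, Fgg, Vtn and Gc were all at the floor. Hba-a1, of the erythroid list, was at 13.20 in that library and at 7.51 in P8 replicate 3. The part of RNA from other cells in its Alb and Ttr was not tested.

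Skin Mac held the least. In 11 libraries Alb, Apoa1 and Ttr were each detected once, at 6.57, 6.14 and 6.38, and the other 7 genes never. Against brain, kidney and lung Mac 0 of the 10 were called by limma, where 9.63% of genes were called higher and 3.92% lower, with Alb at -1.03 ± 0.39 (adjusted p = 0.0569, unadjusted p = 0.0102), a call gained when any 1 of 6 brain, kidney or lung libraries was left out. In the 6 limbs Mac libraries Apoa1 (7.08), Ttr (6.56) and Afp (6.03) were each detected once.

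The genes whose levels followed the mean of the 10 most closely over the 93 libraries were looked for among 12557 genes. Their Pearson correlations, given as a description because the libraries share tissues and the few high liver libraries weigh most, were 0.97 for Serpina1b, 0.95 for Serpina1a, 0.94 for F2, 0.90 for Serpina1c, 0.90 for Fga, 0.89 for Itih3, 0.86 for Clec4f, 0.86 for Ambp and 0.85 for C6. Serpina1a, Serpina1b and Serpina1c are near-identical copies of the alpha-1-antitrypsin gene, so that their reads may be shared. Fga encodes the remaining chain of fibrinogen, and Clec4f is the 1 gene among them known from Kupffer cells.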

How the data were processed

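The deposited table holds log2 values of 37521 transcripts in 93 libraries, as the authors made them. The submitters' processing notes name Bowtie 1.1.1, DESeq2 and mm10 without their roles, the sources used here do not give the normalization, and base 2 was taken from the range of 0.836 to 19.0. There are no counts, so the depth is unknown and no counting interval can be given. Of the transcripts, 36703 matched GENCODE vM21 by identifier and 818 did not. The floor of 5.37 is 0.5 above the highest 5th percentile of any library. A gene's level is the log2 of the floor plus the linear excess of its transcripts over it. Shares in percent were computed on the linear scale. Groups follow the labels. limma 3.58.1 (R 4.3.3) fitted 1 mean per group to all 93 libraries with an intensity trend, over 14173 genes with a level of at least 6.37 in 2 or more libraries, with Benjamini-Hochberg adjustment over all of them. The script was tested on simulated data. Alb minus Afp was tested by exact permutation in Python 3.11.15 (scipy 1.17.1, numpy 2.4.6, pandas 2.3.3), with plots by matplotlib 3.10.9. Named genes are all 10 members, up to 4 called genes of each list with the largest difference, and the 10 genes most correlated with the members' mean, of which some are not reported here. The members and lists were chosen with earlier results of these data known. Same-numbered libraries did not deviate together, so replicate numbers were not used as pairs. Alternatives were another floor or none, the highest transcript, other scalings, no filter, array weights, no trend, library sets, a replicate block, and leaving out libraries. Promoter windows came from RefSeq (GRCm38.p6).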

Additional observations from a re-analysis of the deposited data

Results flagged for a closer look

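Among groups of 4 or more libraries, 8 pairs of a gene and a group could be checked for a library apart from the others, and 6 had one. In 5 of these 6 the other 3 libraries were all at the floor, so that any detected value had to stand apart, and the usual rate of about 1 group in 20 does not apply. In brain pMac of E9.5, Afp was at 6.25 in replicate 3 and at the floor in the other 3. In yolk sac Mac of E10.25, replicate 4 stood above the other 3 in Ttr (8.59), Fgb (6.87) and Fgg (6.96), replicate 1 was alone in holding Alb (5.52), and replicate 2 was alone in lacking Afp (5.37, the floor).

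The change after birth differed between liver and the other tissues by the interaction test (limma, Benjamini-Hochberg) in 4 genes: Apoa2 by 3.61 (adjusted p = 0.000646), Ahsg by 2.92 (adjusted p = 5.95e-06), Vtn by 2.90 (adjusted p = 0.000233) and Gc by 2.79 (adjusted p = 5.87e-06). Vtn, Gc and Apoa2 were not called without P21. In the other tissues the 4 genes lay mostly at the floor, so that the test largely restates the change in liver. With no floor none of the 4 was called.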

How the results depend on the processing

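Liver against other tissues gave 10 of 10 calls under every alternative run and in all 48 fits that left out 1 library. Outside the fits that left out 1 library, 329 counts and differences that answer a comparison stayed within 1.5 times or on the same side of the threshold, 35 counts moved further and 2 differences lost the call. The cause was not tested except where fewer libraries enter. With no floor, liver postnatal against fetal had 4 members higher and 0 lower, the interaction 0, other tissues after birth 1 higher, liver E10 0, P2 and P8 0, lung 1 higher and skin 3 lower. Quantile normalization gave lung 1 higher, skin 1 lower and P21 0 lower. Array weights gave postnatal 4 higher and 0 lower, liver E10 0, EMP 2 lower, skin 1 lower and P21 0 lower, and no trend gave skin 1 lower. Without libraries with few detected transcripts, postnatal had 2 higher and 0 lower, P2 and P8 2, the interaction 1, and Alb minus Afp 1.30 (exact permutation p = 0.0952), and the sign turned for Alb (-0.18) and Vtn (-0.74) in postnatal against fetal and for Vtn (-0.19) in the interaction.

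Without P21 the interaction had 1. Libraries fell into sets of 60 and 33 by the pattern of their low values. Within the larger, fetal against E10 had 2, postnatal 4 higher and 0 lower, liver E10 0 and liver E12.5 1. Within the smaller, liver E10 had 0 and yolk sac 1. In liver Mac alone, fetal against E10 had 1, postnatal 1 higher and 0 lower, P2 and P8 0, and P21 0 lower. E14.5 and E18.5 against P2 and P8 gave Alb minus Afp 1.43 (exact permutation p = 0.0571). The sets, the liver-only fit and leaving out P21 were chosen after seeing the data. Leaving out 1 library gave 4 to 10 for fetal against E10, 5 to 9 higher and 0 to 1 lower for postnatal, 0 to 7 for the interaction, 0 to 3 for liver E10, 3 to 8 for E12.5, 1 to 2 for P2 and P8, 8 to 9 higher for P21, 0 to 2 lower for EMP, 1 to 2 for brain, 0 to 1 lower for skin, and 3.76 to 6.08 for Alb minus Afp. With the replicate number as a block, fetal against E10 had 5 (Ttr 2.57, adjusted p = 0.052) and no other count of members changed. Same-numbered libraries had a median correlation of 0.0035 over 1436 pairs, and differently numbered ones -0.0021 over 2162. The unknown depth limits every statement on genes at the floor.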
